A study of Danio rerio with 24 samples.

Results

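Cytochrome P450 genes were examined in the livers of larval zebrafish. Members were the genes of the count table whose symbol starts with cyp, a family number and a subfamily letter, with CYP7A1 and CYP51A1 left out. This rule gave 84 of the 32520 genes in the table. By role, 38 members belonged to family 2, 16 to sterol and bile acid metabolism, 7 to vitamin D and retinoid metabolism, 7 to steroid hormone synthesis, 5 each to families 1 and 3, and 4 to family 4. The remaining 2 members, CYP20A1 and CYP2U1, were grouped as other.

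P450 enzymes are haem proteins that insert oxygen into their substrates. Families 1, 2 and 3 act mostly on foreign compounds, fatty acids and steroids in hepatocytes, and their genes respond to receptors such as the aryl hydrocarbon receptor and the pregnane X receptor. Other members have fixed substrates. CYP2R1 and CYP27B1 carry out the activating hydroxylations of vitamin D and CYP24A1 inactivates it, while the CYP27A, CYP8B and CYP46A enzymes hydroxylate cholesterol and its derivatives on the way to bile acids or for excretion. Electrons reach the microsomal enzymes from P450 reductase and cytochrome b5, and the mitochondrial enzymes from ferredoxin and its reductase, FDXR.

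Livers were dissected at 13 days post fertilization (dpf) from larvae that had been on their diet since 6 dpf. Wild-type (WT) larvae carried no transgene, and the transgenic fish were maintained by outcrosses to AB. In batches 7 to 9 the WT larvae were siblings of the miR-21OE larvae. For the earlier batches, which held WT only, such kinship is not given in the sources used here. The founder of the sequenced larvae is not given in the sources used here. The miR-21OE larvae carried a transgene in which the fabp10a promoter, active in hepatocytes, drives dre-mir-21-1 together with the fluorescent protein Dendra2, with a cryaa:mCherry lens marker. No group carried the transgene without the microRNA, so the microRNA and the rest of the transgene cannot be told apart. The normal control diet (NCD) was GEMMA Micro 75, and the high-cholesterol diet (HCD) was the same food with 10% cholesterol by weight. Each library came from 13 livers of a single clutch. There were 9 libraries each of WT-NCD and WT-HCD, in batches 1 to 9, and 3 libraries for each diet of miR-21OE, in batches 7 to 9. Libraries are numbered within their group, so that WT-NCD 7 and miR-21OE-NCD 1 both belong to batch 7.

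Total counts ranged from 16942574 to 36641566 per library. As a check of the labels, MIR21 lay at 5.933 to 10.8 CPM (counts scaled to the library size, with TMM factors over all 24 libraries) in miR-21OE-NCD and 0.5228 to 2.948 CPM in WT-NCD. On HCD the ranges overlapped, with 5.382 to 7.142 CPM in miR-21OE and 1.606 to 5.75 CPM in WT. The WT ranges cover all 9 batches and the miR-21OE ranges only batches 7 to 9, so the overlap is not shown within shared batches. CRYAA, whose promoter drives the lens marker, was at 7 to 25 counts with the transgene and at 0 or 1 without it. Hepatocyte markers were abundant in every library, with summed levels of 14790 to 52020 CPM. The sum was lower on HCD than on NCD in 8 of 9 WT batches, and it was lowest in WT-HCD 1 (14790 CPM), WT-HCD 6 (19850 CPM) and WT-HCD 2 (23970 CPM). The 11 markers of exocrine pancreas summed to 410 CPM in WT-HCD 5 and to 58270 CPM in miR-21OE-NCD 3. Batches 1 to 4 had 1.72% to 2.77% of their counts in the small RNA rn7sl1, and the later batches had 6.45% to 13.1%. In whole livers, fewer cells of a type and less RNA per cell cannot be told apart.

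P450 members took 0.579% to 1.21% of the counts of a library. A few of them made up most of this share, which is not corrected for gene length. CYP24A1 alone held 20.6% to 64.4% of the member counts, followed by cyp3a65, the zebrafish gene of the CYP3A subfamily, and CYP1A1, the classical target of the aryl hydrocarbon receptor. At the other end, cyp2k22 and CYP19A1 (aromatase) had 0 counts in all 24 libraries, where 3 counts in the smallest library would be 0.177 CPM. With at least 10 counts in total, 78 members were tested in the 18 WT libraries and 74 in the 12 libraries of batches 7 to 9.

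The levels of the abundant members differed between batches. CYP24A1 lay at 6826 to 9549 CPM in the WT libraries of batches 5 and 7 and was 9123 CPM in WT-NCD 6, against 1713 to 5215 CPM in WT-HCD 6 and the WT libraries of all other batches. CYP1A1 reached 2418, 3285, 4367 and 4050 CPM in WT-NCD, WT-HCD, miR-21OE-NCD and miR-21OE-HCD of batch 8. In batches 1 to 4 it stayed between 148.8 and 472.7 CPM. All 4 groups of batch 8 were thus above the 8 WT libraries of batches 1 to 4. cyp3a65 varied less, from 583.3 CPM in WT-HCD 1 to 2514 CPM in WT-NCD 6. None of these 3 genes passed in any of the 7 comparisons by edgeR with or without a batch term.

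**Figure D1:**
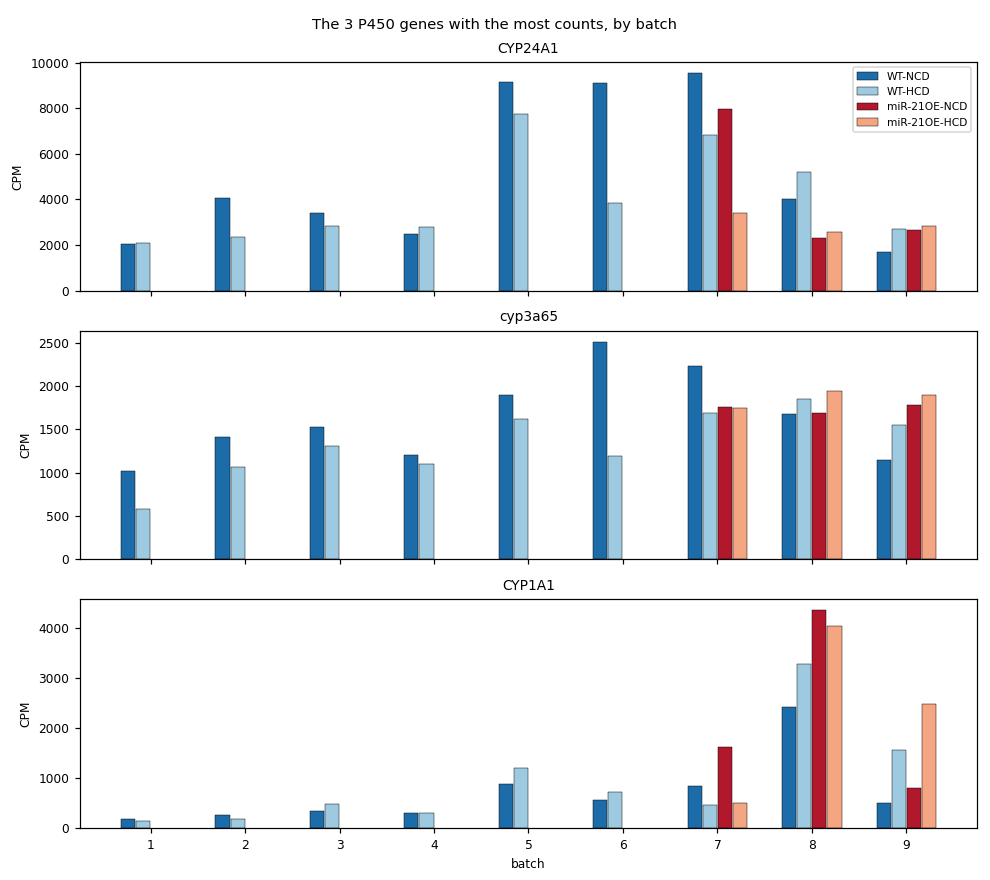
CPM of CYP24A1, cyp3a65 and CYP1A1 (y axes, linear from 0) in each of the 24 libraries, by batch (x axis), with a bar for each library coloured by group. WT-NCD of batches 5, 6 and 7 has 9123 to 9549 CPM of CYP24A1, while WT-HCD 6 (3845 CPM) and miR-21OE-HCD 1 (3418 CPM) are lower than the other libraries of these batches, and CYP1A1 is high in all 4 groups of batch 8.

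With no batch term, 0 members passed in any of the 7 comparisons at an adjusted p of 0.05 (edgeR quasi-likelihood test, Benjamini-Hochberg over all genes tested). The libraries of a batch deviated together, so the fit with batch as a replicate block is given beside it. With the block, 8 of 74 members passed for miR-21OE against WT averaged over both diets, all of them lower in miR-21OE, and 5 of 78 passed for the diet in WT, 4 of them lower and 1 higher on HCD. The other 5 comparisons had 0 members past the threshold with or without the block. Standard errors (SE) and log2 fold changes (L2FC) below are from the fit with the block unless stated.

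**Figure D2:**
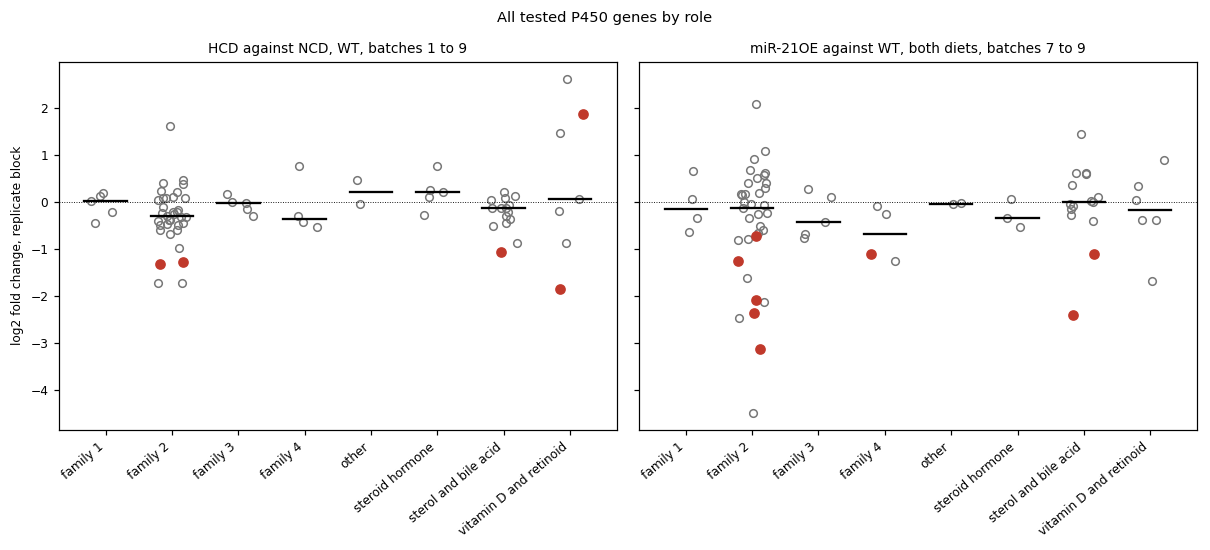
L2FC from the edgeR fit with the replicate block (y axis) of the 78 members tested for the diet in WT (left) and the 74 tested for miR-21OE against WT averaged over both diets (right), by role (x axis, points spread sideways for legibility). Red points passed an adjusted p of 0.05, open points did not, and bars are medians. All 8 red points on the right lie below 0.

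The first question was whether overexpression of miR-21 in hepatocytes changed P450 expression. Averaged over both diets, cyp2x9, cyp2k18, cyp2k19, cyp2k20 and cyp2p6 of family 2, CYP4V2 (ENSDARG00000061585, cyp4v7 in the study), cyp27a1.1 (cyp27a7 in the study) and cyp46a1.3 were lower in miR-21OE livers, by L2FC of -0.73 to -3.13. No member was higher at this threshold. Of all genes tested, 2.17% were called in the same fit, 0.923% lower and 1.24% higher, against 10.8% of the members called lower. Without the block none of the 74 passed, where 0.388% of all genes did. At an unadjusted p under 0.05 there were 14 members, against 8.94% of all genes, and DESeq2 without the block called 6 members, all lower, against 2.44% of all genes. DESeq2 with the block called 14 members, 12 lower and 2 higher, against 5.43% of all genes. The split of all genes by direction is not given here for any DESeq2 fit. The members were not independent of each other, since several are neighbours with similar sequence and the counting rules for reads that match more than 1 gene are not given in the sources used here. The median L2FC of the 74 members was -0.08, with 29 above and 45 below 0, beside a median of -0.002 over all genes. With library totals in place of TMM factors both medians moved up, to 0.03 and 0.11, and 6 members passed with the block, all lower. Of the 21660 genes tested in that fit, 363 were higher and 122 lower.

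By role, 5 of 35 tested family 2 genes fell, 1 of 4 family 4 genes and 2 of 15 sterol and bile acid genes. The medians were -0.12 for family 2, -0.69 for family 4 and -0.003 for the sterol and bile acid genes. The 4 tested family 1, 5 family 3, 6 vitamin D and retinoid and 3 steroid hormone genes had medians of -0.14, -0.43, -0.17 and -0.33, and none of them passed.

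cyp2x9 had the largest L2FC among the 8 genes that passed. Its level in WT-NCD was 20.97, 49.77 and 78.38 CPM in batches 7, 8 and 9, and 1.532, 67.51 and 49.9 CPM in WT-HCD. In miR-21OE-NCD it was 0.5071, 17.09 and 12.76 CPM, and in miR-21OE-HCD 0.1736, 11.54 and 4.241 CPM. Every miR-21OE library was thus below the WT library of its batch and diet, although WT-HCD 7 overlapped with the miR-21OE libraries. The L2FC was -3.13 (SE 0.49, edgeR adjusted p 0.00682 with the block and 0.424 without it), lower in 6 of 6 pairs. cyp2x8, its neighbour, had -2.47 (SE 0.81, edgeR adjusted p 0.168 with the block) and did not pass.

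CYP4V2 (ENSDARG00000061585) belongs to a fatty acid hydroxylase subfamily and separated the genotypes without overlap. The WT libraries of batches 7, 8 and 9 had 327.3, 275.3 and 163.3 CPM on NCD and 162.1, 211.2 and 261 CPM on HCD. The miR-21OE libraries had 139.3, 103 and 105.5 CPM on NCD and 132.4, 82.22 and 89.9 CPM on HCD. All 6 miR-21OE libraries were below all 6 WT libraries. The L2FC was -1.12 (SE 0.20, edgeR adjusted p 0.0126) with the block and -1.10 (SE 0.22, edgeR adjusted p 0.0595) without it. The other gene with this symbol, CYP4V2 (ENSDARG00000062132), had 390.7 ± 89.2 CPM in WT-NCD and 342.2 ± 79.2 CPM in miR-21OE-NCD (SD, n = 3 each) and did not pass.

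**Figure D3:**
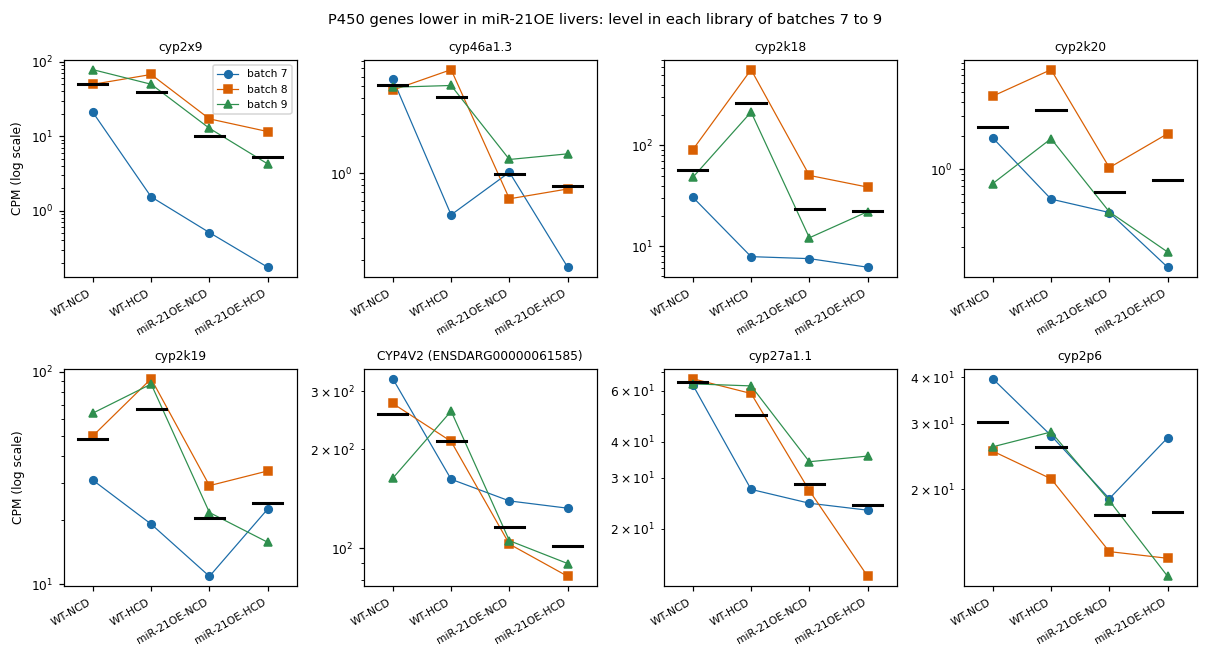
CPM (y axes, log scale) of the 8 members called lower in miR-21OE by edgeR with the replicate block, in each library of batches 7 to 9 by group (x axis). Lines join the libraries of a batch and black bars are the means of 3 libraries. For cyp46a1.3 the miR-21OE libraries lie between 0.1736 and 1.428 CPM, and WT-HCD of batch 7 (0.4597 CPM) is the only WT library within that range.

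cyp27a1.1 belongs to the sterol 27-hydroxylase family of bile acid synthesis. Its WT-NCD levels were close together, at 62.95, 66.09 and 63.44 CPM, and WT-HCD had 27.35, 58.76 and 62.43 CPM. The miR-21OE libraries had 24.49, 27.08 and 34.1 CPM on NCD and 23.17, 13.67 and 35.67 CPM on HCD. On NCD the groups did not overlap, and on HCD only WT-HCD 7 fell within the miR-21OE range. The L2FC was -1.12 (SE 0.21, edgeR adjusted p 0.0193 with the block), lower in 6 of 6 pairs. Of the other CYP27A genes, none passed in this comparison or for the diet in WT. The more abundant cyp27a2 had 159.5, 157.8 and 166.6 CPM in WT-NCD and 154.5, 184.2 and 127 CPM in miR-21OE-NCD. On HCD it had 125.2, 183.1 and 168.7 CPM in WT and 191.2, 161.6 and 153.6 CPM in miR-21OE. cyp27a3 had 9.348, 58.3 and 66.92 CPM in WT-NCD and 31.14, 89.3 and 58.28 CPM in miR-21OE-NCD.

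cyp46a1.3 belongs to the cholesterol 24-hydroxylase family, which in mammals is known mainly from brain. It had 5.743, 4.671 and 4.923 CPM in WT-NCD of batches 7 to 9 and 1.014, 0.6193 and 1.286 CPM in miR-21OE-NCD. On HCD it had 0.4597, 6.826 and 5.086 CPM in WT and 0.1736, 0.7436 and 1.428 CPM in miR-21OE. All 6 miR-21OE values were at most 1.428 CPM, and 5 of 6 WT values were at least 4.671 CPM. The L2FC was -2.41 (SE 0.52, edgeR adjusted p 0.0330 with the block). Of the other cyp46a1 genes, none passed in this comparison.

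The cyp2k genes, a fish subfamily whose 8 neighbouring genes form a run in the GRCz12tu assembly, shared a direction. All 8 had a negative L2FC with the block, with a median of -1.85, and 3 passed. The value nearest 0 was -0.01 for cyp2k16, which was 0.01 without the block. The value farthest from 0 was -4.48 for cyp2k6, a fitted value that rests on 4, 6, 3, 2, 10 and 3 counts in WT and on 1 count in miR-21OE-NCD 2 with 0 in the other miR-21OE libraries. cyp2k18 had 30.63, 90.65 and 48.14 CPM in WT-NCD, 7.854, 566.8 and 214.8 CPM in WT-HCD, 7.505, 50.37 and 12.09 CPM in miR-21OE-NCD and 6.162, 38.56 and 22.01 CPM in miR-21OE-HCD. Its L2FC was -2.36 (SE 0.46, edgeR adjusted p 0.0206 with the block), lower in 6 of 6 pairs, and WT-HCD 8 and WT-HCD 9 were the highest of the 12 libraries. cyp2k19 had means of 48.2 ± 16.5 and 20.6 ± 9.16 CPM in WT-NCD and miR-21OE-NCD, and 66.4 ± 41 and 24.2 ± 9.29 CPM on HCD (SD, n = 3 each). It was lower in 5 of 6 pairs, with an L2FC of -1.26 (SE 0.27, edgeR adjusted p 0.0322 with the block). cyp2k20 was a low gene, with 14 to 177 counts in the WT libraries of batches 7 to 9 and 3 to 59 in miR-21OE, and had an L2FC of -2.08 (SE 0.44, edgeR adjusted p 0.0312 with the block). Near-identical copies can share reads here, so the 8 genes are not 8 separate observations. The same run showed no common direction for the diet in WT, with 4 genes above and 4 below 0. This description of the run was chosen after the values were seen.

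cyp2p6 is 1 of 11 neighbouring family 2 genes, from cyp2n13 to cyp2j20, in GRCz12tu. It had 30.3 ± 8.09 CPM in WT-NCD and 17 ± 2.98 CPM in miR-21OE-NCD, and 25.9 ± 3.98 and 17.4 ± 8.79 CPM on HCD (SD, n = 3 each). It was lower in 6 of 6 pairs with the smallest change of the 8, an L2FC of -0.73 (SE 0.16, edgeR adjusted p 0.0405 with the block). In the same run cyp2p8 was higher in 6 of 6 pairs, at 0.61 (SE 0.22, edgeR adjusted p 0.206 with the block). The run had 8 genes below and 3 above 0.

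The number of members that passed depended on single libraries. cyp2x9 and CYP4V2 (ENSDARG00000061585) passed with the block in all 12 fits that left out 1 library, cyp27a1.1 in 6, cyp2k18 in 5, cyp2k19 and cyp46a1.3 in 4, and cyp2k20 and cyp2p6 in 3. The count was 2 without WT-NCD 7, WT-HCD 8, WT-HCD 9 or miR-21OE-NCD 2. It was 4 without WT-NCD 8, miR-21OE-NCD 1, miR-21OE-HCD 2, miR-21OE-NCD 3 or miR-21OE-HCD 3, and 12 without WT-HCD 7. The calls over all genes moved too. They were 149 higher and 98 lower without WT-NCD 7, and 203 higher and 243 lower without WT-HCD 7. In the fits with 2 members called they were 145 to 187 higher and 96 to 127 lower. In those with 4 members called they were 132 to 203 higher and 85 to 123 lower. Hepatocyte markers summed to 37400 to 52020 CPM in WT-NCD and 34620 to 50490 CPM in miR-21OE-NCD of these batches, and to 24710 to 49440 and 35740 to 44750 CPM on HCD. Their part in the result was not tested.

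Some members had higher levels in miR-21OE without passing. CYP8B1 (ENSDARG00000053068), a sterol 12-hydroxylase that shapes the bile acid pool, had 138.4, 115.9 and 118.5 CPM in WT-NCD and 254.5, 113.4 and 137.3 CPM in miR-21OE-NCD. On HCD it had 130.1, 159.4 and 122.2 CPM in WT and 381.4, 195.1 and 209 CPM in miR-21OE. The groups did not overlap on HCD and did on NCD. Its L2FC was 0.61 (SE 0.18), with edgeR and DESeq2 adjusted p of 0.124 and 0.0270 with the block. CYP8B1 (ENSDARG00000097559) was higher in 6 of 6 pairs, at 9 to 145 counts per library. On NCD it had 0.4006, 0.9227 and 2.571 CPM in WT and 4.665, 0.9495 and 3.703 CPM in miR-21OE. CYP8B1 (ENSDARG00000097556) had no common direction, with 7.879, 8.477 and 6.753 CPM in WT-NCD and 8.418, 6.812 and 6.584 CPM in miR-21OE-NCD. CYP1A1 was higher in 6 of 6 pairs, at 0.66 (SE 0.37, edgeR adjusted p 0.489 with the block). The 8 tested genes of the cyp2aa subfamily, which form 2 runs in GRCz12tu, were all above 0 with the block, with L2FC of 0.17 to 2.08, and none passed. Some of these values rest on few reads, since cyp2aa9 had 0 to 3 counts in WT and 0 to 15 in miR-21OE of batches 7 to 9. Neighbouring copies can share reads, and this description was chosen after the values were seen.

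Within each diet no member passed by edgeR. On NCD 0.0277% of all genes passed without the block and 0.268% with it, and on HCD 0.00462% and 0.245%. At an unadjusted p under 0.05, 8 members differed on NCD and 11 on HCD without the block, against 5.15% and 4.96% of all genes. DESeq2 with the block called 6 members on each diet, against 1.92% of all genes on NCD and 1.57% on HCD. On NCD all 6 were lower, namely cyp2x9, cyp2k19, CYP4V2 (ENSDARG00000061585), cyp27a1.1, cyp46a1.3 and CYP27B1. On HCD cyp2x9, cyp2k18, cyp2k20, CYP4V2 (ENSDARG00000061585) and cyp46a1.3 were lower and CYP27B1 was higher.

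The second question was whether dietary cholesterol changed P450 expression in WT livers, for which 9 pairs of libraries were at hand. With the block, CYP27B1, cyp2ad2, cyp2n13 and cyp27a1.1 were lower on HCD and CYP27C1 was higher. These 5 of 78 members were 6.41%, close to the 7.48% of all genes called, with 5.13% of members against 3.4% of all genes lower and 1.28% against 4.09% higher. Without the block 0 of 78 members passed by edgeR, where 1.15% of all genes did, and 8 members had an unadjusted p under 0.05, against 14.5% of all genes. DESeq2 with the block called 14 members (17.9%), 13 lower and 1 higher, against 13.2% of all genes in both directions. DESeq2 without the block called 0 members. For that fit the share of all genes is not given here, nor is the split of all genes by direction for either DESeq2 fit. By role, 2 of 35 family 2 genes and 1 of 15 sterol and bile acid genes fell, with medians of -0.30 and -0.14. Of the 7 vitamin D and retinoid genes 1 fell and 1 rose, and 0 of 5 family 1, 5 family 3, 4 family 4 and 5 steroid hormone genes passed. With library totals in place of TMM factors the median of all genes in the fit with the block moved from 0.04 to 0.39, and the member median from -0.18 to 0.18, so the members stayed below the median of all genes under either scaling. With library totals and the block 10 members passed, 5 higher and 5 lower. Of the 23934 genes tested in that fit, 3455 were higher and 365 lower, so the split over all genes moved with the scaling too.

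CYP27B1, the enzyme that makes the active form of vitamin D, was lower on HCD in 9 of 9 batches. Its level in WT-NCD had a minimum of 5.636, a median of 34.1 and a maximum of 69.55 CPM, and in WT-HCD 0.6235, 11.6 and 23.75 CPM. The ranges overlapped across batches. The L2FC was -1.86 (SE 0.31, edgeR adjusted p 0.00469 with the block and 0.177 without it). It passed in all 18 fits with the block that left out 1 library, which in effect leave out each of the 9 batches. It had an L2FC of -1.92 in batches 1 to 4 and -1.83 in batches 5 to 9, fitted separately.

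CYP27C1, a retinoid desaturase known from zebrafish retina, was near the limit of detection. It had 1 to 33 counts in WT-NCD libraries and 3 to 32 in WT-HCD. The median was 0.1075 CPM on NCD and 0.8358 CPM on HCD, and the L2FC was 1.88 (SE 0.44, edgeR adjusted p 0.0244 with the block). It was higher on HCD in 8 of 9 batches. The exception was batch 7, where WT-NCD had 1.469 CPM, above every other WT library, and WT-HCD 1.226 CPM. These are low counts in which a few reads set the value.

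The other members that fell on HCD were better measured, with at least 650 counts in every WT library. cyp2ad2 had a minimum of 183, a median of 535 and a maximum of 1018 CPM in WT-NCD and 47.82, 289.1 and 712.4 CPM in WT-HCD, an L2FC of -1.28 (SE 0.32, adjusted p 0.0312 by edgeR with the block). cyp2n13 had 109.7, 229.6 and 428.4 CPM in WT-NCD and 15.47, 140.7 and 244.2 CPM in WT-HCD, with -1.33 (SE 0.35, adjusted p 0.0359). cyp27a1.1 had 53.11, 83.96 and 160.2 CPM in WT-NCD and 15.93, 58.76 and 106.9 CPM in WT-HCD, with -1.05 (SE 0.27, adjusted p 0.0342). By CPM, cyp27a1.1 was lower in 9 of 9 batches and the other genes in 8 of 9, with batch 9 as the exception. For cyp27a1.1 batch 9 was close, at 63.44 CPM on NCD and 62.43 CPM on HCD. Its direction there depends on the scaling, since counts went from 1456 to 1559. WT-HCD 1, the library with the lowest hepatocyte marker sum, also had the lowest level of all 3 genes among WT libraries. The 5 biliary markers summed to 1667 to 3912 CPM in WT-NCD and 2025 to 6284 CPM in WT-HCD. The part of these markers in the results was not tested.

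**Figure D4:**
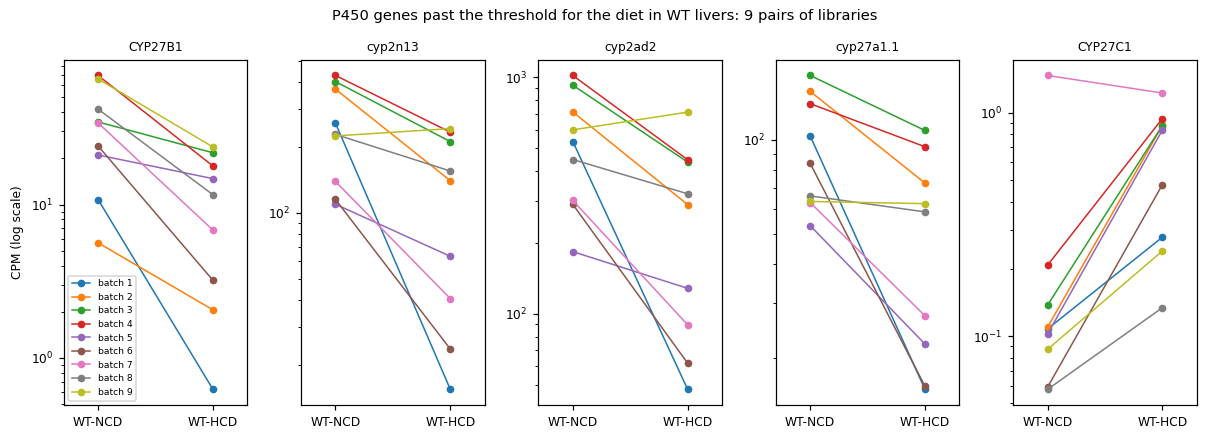
CPM (y axes, log scale) of the 5 members called for the diet in WT livers by edgeR with the replicate block, in WT-NCD and WT-HCD (x axis), with a line for each of 9 batches. The line of CYP27B1 falls in 9 of 9 batches, and that of CYP27C1 rises in 8 of 9 from levels of 0.05767 to 0.2075 CPM.

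Of these 5 genes, CYP27B1 alone passed in every fit that left out 1 library. Each batch has 2 WT libraries, so with the block a library without its partner adds nothing to the diet contrast. The 18 fits thus leave out each of 9 batches in effect, not 18 separate libraries. cyp27a1.1 passed in 10 of 18, and cyp2ad2, cyp2n13 and CYP27C1 in 8 of 18. The count was 1 without WT-NCD 2 or WT-HCD 2. It was 2 without WT-NCD 3, WT-HCD 3, WT-HCD 4, WT-HCD 5, WT-NCD 6, WT-HCD 6, WT-NCD 7 or WT-HCD 7, and 3 without WT-NCD 4 or WT-NCD 5. It was 8 without WT-NCD 8, WT-HCD 8 or WT-HCD 9, and 10 without WT-NCD 9. Without WT-NCD 1 or WT-HCD 1 it was 7, of which 6 were lower. Over all genes the calls moved too, with 648 higher and 440 lower without WT-NCD 2. Without WT-NCD 9 they were 1058 higher and 1090 lower. In the fits with 2 members called they were 575 to 744 higher and 403 to 633 lower. In those with 8 members called they were 795 to 1055 higher and 655 to 1015 lower. In batches 5 to 9 alone 1 member passed, CYP27B1 (edgeR adjusted p 0.02682 with the block). In batches 1 to 4 alone 0 members passed, and CYP27B1 had an edgeR adjusted p of 0.1906 with the block. The share of all genes called in these fits is not given here, so the counts are not read as a result about the members. Both subsets were chosen after seeing the data.

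cyp27a1.1 was the only member past the threshold in both comparisons with the block. It had an L2FC of -1.05 for HCD in WT and -1.12 for miR-21OE. The 2 comparisons share the WT libraries of batches 7 to 9, so these values are not independent.

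The vitamin D genes were compared for a diet response that differs between the genotypes. CYP27B1 had 34.1, 41.92 and 65.96 CPM in WT-NCD of batches 7, 8 and 9 and 6.819, 11.6 and 23.75 CPM in WT-HCD. In miR-21OE-NCD it had 13.95, 21.72 and 7.458 CPM, and in miR-21OE-HCD 77.46, 42.07 and 21.56 CPM. HCD was lower than NCD in 3 of 3 batches in WT and higher in 3 of 3 batches in miR-21OE. Without the block the L2FC for the diet was -1.75 (SE 0.56) in WT and 1.69 (SE 0.56) in miR-21OE, and their difference, the genotype-by-diet interaction, was 3.44 (SE 0.79). By edgeR the interaction had p values of 0.000916 unadjusted and 1.0 adjusted, where 0% of all genes passed. An unadjusted p below 0.05 was found for 2 members and 1.61% of all genes. With the block, 0% of all genes passed by edgeR, and CYP27B1 had a DESeq2 adjusted p of 0.01435, where 0.0369% of all genes passed.

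CYP2R1, the vitamin D 25-hydroxylase, had values in the same directions with more spread. WT-NCD had 5.03, 16.55 and 29.89 CPM and WT-HCD 2.643, 10.08 and 11.29 CPM. miR-21OE-NCD had 3.753, 23.12 and 5.092 CPM and miR-21OE-HCD 69.82, 19.58 and 15.27 CPM. HCD was lower in 3 of 3 WT batches and higher in 2 of 3 miR-21OE batches. The interaction was 2.79 (SE 1.21, edgeR adjusted p 1.0) and did not pass. The library miR-21OE-HCD 1 had the highest value of the 12. CYP24A1, which is induced by active vitamin D in vertebrates, had an interaction of -0.53 (SE 0.86) and did not pass.

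**Figure D5:**
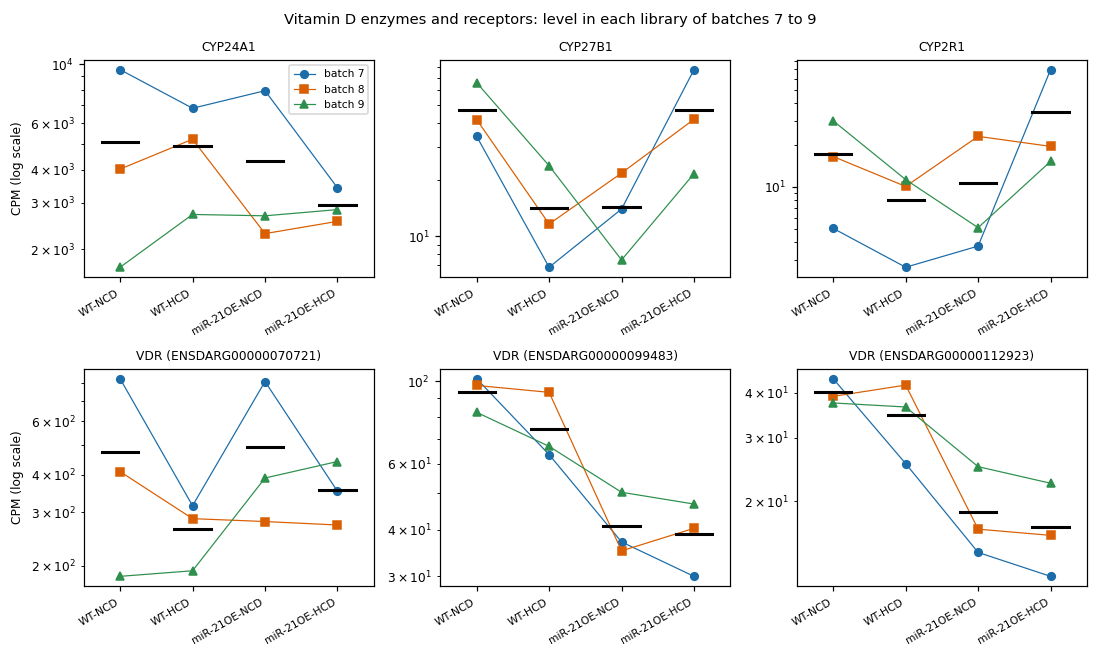
CPM (y axes, log scale) of CYP24A1, CYP27B1, CYP2R1 and the 3 IDs with the symbol VDR in each library of batches 7 to 9, by group (x axis). Lines join the libraries of a batch and black bars are the means of 3 libraries. CYP27B1 falls from NCD to HCD in all 3 WT pairs and rises in all 3 miR-21OE pairs, and VDR (ENSDARG00000099483) is lower in every miR-21OE library (29.99 to 50.36 CPM) than in every WT library (63.52 to 101.4 CPM).

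The receptor and electron transfer genes around the P450 enzymes were read from lists of 21 regulators, 12 redox partners and 12 genes of haem supply. Averaged over both diets, 1 of 11 tested redox partners was higher in miR-21OE, and 2 of 20 regulators were lower, by edgeR with the block, where 1.24% of all genes were higher and 0.923% lower. Without the block the redox partner and 1 of the 2 regulators passed. VDR (ENSDARG00000099483), a vitamin D receptor gene, had an L2FC of -1.07 (SE 0.16, edgeR adjusted p 0.00605 with the block and 0.0309 without it). VDR (ENSDARG00000112923) had -1.10 (SE 0.17, edgeR adjusted p 0.00618 with the block and 0.0575 without it), while VDR (ENSDARG00000070721) did not pass. Reads may be shared between IDs of this symbol. FDXR, the ferredoxin reductase of the mitochondrial enzymes, had 83.07, 60.49 and 61.13 CPM in WT-NCD, 46.66, 56.98 and 39.28 CPM in WT-HCD, 153.6, 116.8 and 108.1 CPM in miR-21OE-NCD and 98.64, 78.39 and 113.5 CPM in miR-21OE-HCD. On each diet every miR-21OE library was above every WT library, at 0.96 (SE 0.16, edgeR adjusted p 0.00940 with the block and 0.0456 without it, or 0.05009 without it and with RLE factors).

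For the diet in WT, 3 of 12 redox partners were lower, 4 of 21 regulators were lower and 1 was higher, and 0 of 12 haem genes passed, by edgeR with the block, where 3.4% of all genes were lower and 4.09% higher. Without the block the regulator that rose passed, and 0 of the 7 lower calls did. The gene that rose was NR1H3, the liver X receptor, a sensor of oxidised cholesterol. Its median was 72.34 CPM in WT-NCD and 130.3 CPM in WT-HCD, with an L2FC of 0.89 (SE 0.19, adjusted p 0.0155 with the block and 0.0336 without it), higher in 8 of 9 batches. CYB5R2, a cytochrome b5 reductase, fell furthest, from a median of 32.53 to 1.765 CPM, with an L2FC of -3.43 (SE 0.46, edgeR adjusted p 0.00138 with the block and 0.112 without it) and lower levels in 9 of 9 batches. In batches 6 and 7 it had at most 11 counts per WT library. cyb5b, the outer mitochondrial cytochrome b5, changed by -0.77 (SE 0.13, edgeR adjusted p 0.00511 with the block and 0.0711 without it). FDXR changed by -0.84 (SE 0.18, edgeR adjusted p 0.0178 with the block and 0.0834 without it). By CPM, cyb5b and FDXR were both lower in 9 of 9 batches. In some batches this direction depends on the scaling, since counts went from 1685 to 2031 for cyb5b in batch 4. For FDXR they went from 1049 to 1277 in batch 8. FDXR was thus lower with cholesterol in WT and higher with the transgene.

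The regulators that fell on HCD were NR1I2 (the pregnane X receptor), HNF4A (a hepatocyte transcription factor), VDR (ENSDARG00000070721) and VDR (ENSDARG00000099483). NR1I2 had a median of 67.26 CPM in WT-NCD and 46.89 CPM in WT-HCD, with an L2FC of -0.61 (SE 0.13, adjusted p 0.0150 by edgeR with the block). HNF4A changed by -0.77 (SE 0.18, adjusted p 0.0241 with the block), and by edgeR without the block its adjusted p was 0.509. By CPM, NR1I2, HNF4A and VDR (ENSDARG00000099483) were lower in 9 of 9 batches and VDR (ENSDARG00000070721) in 8 of 9. In some batches the direction depends on the scaling. Counts went from 2178 to 2209 for NR1I2 in batch 9 and from 1944 to 2376 for HNF4A in batch 2. For VDR (ENSDARG00000099483) they went from 1687 to 2090 in batch 8. HNF4A did not pass without WT-NCD 7 or WT-HCD 7. VDR (ENSDARG00000070721) did not pass in 10 of 18 fits, those without a library of batches 1, 2, 3, 5 or 7.

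In miR-21OE livers no member passed for the diet, with or without the block. Of all genes 0% passed without the block and 0.00923% with it, and DESeq2 with the block called 0 members, against 0.24% of all genes. At an unadjusted p under 0.05 there were 2 members without the block, CYP27B1 and cyp2x8, against 3.02% of all genes. For the diet in WT within batches 7 to 9, 0 members passed, against 0% of all genes without the block and 0.0831% with it. There 1 member, CYP27B1, had an unadjusted p under 0.05, against 4.07% of all genes, and DESeq2 with the block called 0, against 0.849%.

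Several P450 genes were close to absent. The steroid hormone members, which make cortisol and sex steroids in the interrenal gland and gonad, had at most 112 counts in any library, in cyp17a2 of WT-HCD 6. CYP11A1 (ENSDARG00000002347) and CYP11A1 (ENSDARG00000092696), for the first step of steroid synthesis, had 0 to 3 counts. CYP26A1 and CYP1B1, which degrade retinoic acid and oxidise oestrogens, had 0 to 4 and 0 to 7 counts. cyp1c1 and cyp1c2 had 123 and 77 counts in WT-NCD 1, and at most 84 and 67 in any other library. Of the 7 steroid hormone members, 5 were tested in the 18 WT libraries and 3 in batches 7 to 9. CYP26A1 and CYP1B1 were tested in the 18 WT libraries only. CYP11A1 (ENSDARG00000002347) had fewer than 10 counts in total and was tested in neither fit. None of the genes tested passed, at counts this low.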

How the data were processed

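RNA-seq of 24 larval liver libraries was used. The authors deposited raw counts per gene with no normalization. Per the submitters' processing notes, cutadapt 1.16, STAR 2.7.9a and featureCounts 1.6.3 were run against GRCz11. Strand and multiple-match settings are not given in the sources used here, so values of overlapping, antisense and near-identical genes are uncertain. Symbols came from a gene table that matched 29201 of 32520 IDs, and neighbours from RefSeq GRCz12tu. Symbols shared by several IDs are printed with the ID.

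Genes with at least 10 counts in total were tested in R 4.3.3 with edgeR 4.0.16 (glmQLFTest, two-sided, TMM, Benjamini-Hochberg over all genes tested), with a threshold of 0.05 and no batch term. A joint fit held the 4 groups of batches 7 to 9 (12 libraries) and another fit the 18 WT libraries. SE was derived from the L2FC and its F value (absolute L2FC over root F). The batch pairs the libraries: after removal of group means, same-batch libraries correlated with a mean r of 0.466 (minimum 0.193) among the 12 and 0.587 (minimum 0.348) among the 18. Blocked values are therefore given where calls changed. Alternatives were DESeq2 1.42.0, each with and without the block, RLE factors, library totals, other filters, fewer libraries and leaving out each library. The tests of the 12-library fit were checked on simulated counts with known genotype changes. That simulation used a common dispersion for all genes and held no diet effect, and the 18-library fit was not simulated. Of the 32520 genes, 4334 had 0 counts in all libraries. Total counts were 16942574 to 36641566. No libraries held identical values. Without the block, p-values measure the spread between the libraries of a group. With the block, they measure the spread left within batches after the level of each batch is removed.

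Named members were those past the threshold in any comparison with or without the block, the 3 that rose and 3 that fell most per comparison with a mean of at least 50 counts and the same direction in every batch, the 10 highest by mean CPM, and the fixed family 1, cyp3a65, vitamin D, retinoid, CYP7B1, CYP8B1, CYP27A1 and CYP46A1 genes. Genes outside this rule, such as cyp2k6, cyp2k16, cyp17a2 and cyp27a2, were named after their values were seen. The members and lists were chosen with earlier results of these data known. The haem supply list is not reported here for the genotype comparison.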

Additional observations from a re-analysis of the deposited data

Results flagged for a closer look

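In the WT groups of 9 libraries, 10 of 84 tests of a named member found its highest library far from the rest, where chance flags about 1 in 20 for normally distributed values. That rate does not hold for genes of few counts such as CYP26A1 and CYP1B1, so no excess over chance is shown. CYP1A1 stood at 2418 CPM in WT-NCD 8 (next 886.1) and 3285 CPM in WT-HCD 8 (next 1566). cyp2k18 reached 566.8 CPM in WT-HCD 8 (next 214.8). CYP27C1 had 1.469 CPM in WT-NCD 7, cyp1c1 4.407 and cyp1c2 2.759 CPM in WT-NCD 1, and CYP1B1 0.2167 CPM in WT-HCD 5. CYP8B1 (ENSDARG00000097559) had 2.571 CPM in WT-NCD 9 and 2.483 CPM in WT-HCD 9. CYP26A1 had 0.07165 CPM in WT-NCD 1, which was 2 counts against 0 in the other 8 libraries.

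The diet response of CYP27B1 ran in opposite directions in all 3 batches of WT and miR-21OE. The interaction without the block was 3.44 on the log2 scale (edgeR adjusted p 1.0, DESeq2 with the block 0.01435). By CPM, cyp46a1.5 was also lower on HCD in 3 of 3 WT batches and higher in 3 of 3 miR-21OE batches. Its interaction without the block was 1.18 (SE 0.79, edgeR adjusted p 1.0) from 6 to 37 counts per library. The WT direction depends on the scaling, since counts went from 13 to 8, 19 to 22 and 22 to 22 in batches 7, 8 and 9.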

How the results depend on the processing

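Counts of members called were 0 in all 7 comparisons by edgeR without the block. For miR-21OE against WT averaged over both diets, 8 passed with the replicate block, 6 with DESeq2, 14 with DESeq2 and the block, and 6 with library totals and the block. For the diet in WT in all batches, 5 passed with the replicate block and 14 with DESeq2 and the block. With library totals and the block 10 passed, 5 higher and 5 lower, against 1 higher and 4 lower with TMM. In batches 5 to 9 with the block 1 passed, where the share of all genes called is not given here. DESeq2 with the block called 6 members on NCD, 6 on HCD and 1 for the interaction. Leaving out 1 library gave 0 to 1 members without the block for the averaged genotype contrast and 2 to 12 with it, 0 to 1 and 1 to 10 for the diet in WT, 0 to 1 with the block on NCD and on HCD, and 0 in the other comparisons. Without the block the 1 came without WT-NCD 7 (diet in WT) and without WT-HCD 7 or WT-NCD 9 (averaged genotype). With the block it came without WT-NCD 8 on NCD and without WT-NCD 7 or WT-HCD 7 on HCD, and 3 members were called for the diet in WT without WT-NCD 4 or WT-NCD 5. Calls over all genes also changed between the fits that left out 1 library. RLE factors and other filters left every count of members at 0. The cause of these differences was not tested.

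Of 798 alternative values of 94 results on single genes, 0 reversed, 703 stayed on the same side of the threshold, 94 crossed it to pass and 1 crossed it to fail, FDXR for the averaged genotype contrast with RLE factors (edgeR adjusted p 0.05009). The members in this set had an unadjusted p under 0.05 or were among the largest changes with 1 direction in every batch. The list genes in it had passed the threshold. Reversals were therefore unlikely from the outset, and their absence does not extend to other genes. The replicate block changed no call beyond those given. Depth limits the genes with few counts, such as CYP27C1 and cyp2k20.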
